A study of Mus musculus with 12 samples.

Results

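The genes of the mitochondrial ribosomal proteins were taken by their symbols, Mrpl with a number for the large subunit and Mrps with a number for the small subunit, and each was represented by its brightest probe set over the 12 arrays. This gave 74 genes of the 12393 on the array, 47 with a large and 27 with a small subunit symbol. Subunits below follow the symbol, which need not match where, or whether, a protein sits in the ribosome. All 74 lay above the minimum level for testing, a mean intensity of 132.3, as did 8675 genes in all. Probe sets that carry several symbols were not used, so Mrpl30 and Mrpl53 are not among the 74.

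The arrays measured total RNA from PPARgamma KO MEFs, mouse embryonic fibroblasts in which the gene of PPARγ is knocked out. PPARγ is a nuclear receptor at the head of adipocyte differentiation and the target of the ligands used here. Wild-type PPARγ or the S273A form, in which alanine replaces a serine that is phosphorylated, was introduced into them, and all cells were differentiated for 6 days. The 4 groups of 3 arrays were untreated wild-type, untreated S273A, wild-type with 1 µM rosiglitazone for 24 h and wild-type with 1 µM MRL24 for 24 h. Rosiglitazone is a full agonist of the receptor and MRL24 another of its ligands. Every group thus lacks the endogenous receptor and holds an introduced one, and S273A was measured only without ligand. Vehicle is not mentioned in the labels, nor are separate cultures behind the replicates, nor more than 1 set of cells for each receptor form. A p-value here speaks of array-to-array spread alone, possibly technical. S273A and a difference between cell populations cannot be told apart.

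Mitochondria carry their own ribosome, which translates the few proteins encoded by mitochondrial DNA, all of them membrane subunits of the respiratory chain and of ATP synthase. Its ribosomal RNAs come from the mitochondrial genome, whereas every one of its proteins is encoded in the nucleus, made in the cytosol and imported. The small subunit binds the messenger RNA and reads the codons, and the large subunit joins the amino acids and releases the growing chain through an exit tunnel towards the inner membrane. In fat cells, mitochondria supply energy and substrates for lipid synthesis, and their number is known to grow during differentiation.

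The values are intensities on a linear scale, and changes are differences of log2(intensity + 16) from 1 limma fit to all 12 arrays. A gene was called, and is said below to have risen or fallen, at a Benjamini-Hochberg adjusted p under 0.05 over the 8675 genes. With 3 arrays against 3 an exact permutation test cannot go below 0.1. Pparg read 904.1 ± 97.7 in untreated, 1073 ± 162 in S273A, 833.5 ± 76.1 in rosiglitazone and 846.1 ± 20.7 in MRL24 cells (mean ± SD, n = 3). Where its probes lie relative to the deleted and introduced sequence was not analysed here. Array medians lay between 296.8 and 314.9. Untreated replicate 2 stood apart, at -16.07 on the first principal component (25.8% of the variance) against -6.047 to 7.918 on the other 11 arrays, and 3 of the 4 comparisons use it. The log2 ratio of the 3′ to the 5′ control probe set of Actb was 0.20 on that array, 0.16 and 0.07 on the other untreated arrays and 0.04 to 0.11 on the 9 others. For Gapdh the ratio was -0.20 on that array, within the range of the other 11, -0.24 to -0.16. The part of these ratios in the results was not tested. Summed intensities of the 10 adipocyte markers on the array were 13305 to 14989 in untreated, 14275 to 15055 in S273A, 32846 to 33424 in rosiglitazone and 20634 to 20923 in MRL24 cells, led by Fabp4, while Adipoq and Cidec lay below the minimum level. The 9 fibroblast markers summed to 83015 to 91657 in untreated, 77149 to 83006 in S273A, 85054 to 88444 in rosiglitazone and 89668 to 94061 in MRL24 cells. Col1a1 read 12977, 10679, 14267 and 14395 on average in these groups, and Fabp4 9509, 9701, 25153 and 15339. Intensities of different probe sets do not rank the 2 genes. Summed macrophage markers were 3289 to 3763 in untreated, 3977 to 4207 in S273A, 3518 to 3833 in rosiglitazone and 3563 to 3652 in MRL24 cells, and those of endothelium, skeletal muscle and epithelium at most 1065. In these bulk samples, fewer cells of a type and less RNA per cell cannot be told apart.

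Promoter sequences are shown for a selection of the members called in the comparisons below. In RefSeq's table for GRCm38.p6, 65 of the 74 members had a promoter, and of each the 300 bases from 250 before to 50 after the first listed start were searched on both strands. Only exact matches to a motif were counted. The motif CCGGAAG, the core bound by ETS factors such as GABP, a known regulator of nuclear genes for mitochondrial proteins, was present in 23 of 65 member promoters (35.4%), 13 of 41 of the large subunit (31.7%) and 10 of 24 of the small subunit (41.7%). It was present in 18.3% of the promoters of 7034 tested genes and in 9.12% of all 27025 promoters. The 250 bases before the start are printed 5′ to 3′ on the gene's strand, with motif matches in capitals (CCGGAAG or its reverse complement, and in Mrps18c also an E-box). The first 3 belong to members that fell with MRL24 and the fourth to a member that differed between the ligands.
Mrps18c, chr5:100798509-100798758, plus strand: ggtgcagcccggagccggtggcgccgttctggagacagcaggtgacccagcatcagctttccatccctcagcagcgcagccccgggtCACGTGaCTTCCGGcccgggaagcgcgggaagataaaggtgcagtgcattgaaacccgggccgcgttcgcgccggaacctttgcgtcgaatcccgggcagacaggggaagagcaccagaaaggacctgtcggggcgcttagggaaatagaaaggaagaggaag
Mrpl51, chr6:125191950-125192199, plus strand: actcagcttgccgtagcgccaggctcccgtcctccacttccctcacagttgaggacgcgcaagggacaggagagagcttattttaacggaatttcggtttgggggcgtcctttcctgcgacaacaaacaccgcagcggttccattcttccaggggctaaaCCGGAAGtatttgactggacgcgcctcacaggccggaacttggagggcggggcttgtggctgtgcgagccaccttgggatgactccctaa
Mrpl22, chr11:58171414-58171663, plus strand: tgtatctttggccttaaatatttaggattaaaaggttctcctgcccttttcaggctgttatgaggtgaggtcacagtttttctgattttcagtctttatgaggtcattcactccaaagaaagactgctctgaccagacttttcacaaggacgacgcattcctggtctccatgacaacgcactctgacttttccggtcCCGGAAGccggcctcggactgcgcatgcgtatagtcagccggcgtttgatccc
Mrps22, chr9:98601680-98601929, minus strand: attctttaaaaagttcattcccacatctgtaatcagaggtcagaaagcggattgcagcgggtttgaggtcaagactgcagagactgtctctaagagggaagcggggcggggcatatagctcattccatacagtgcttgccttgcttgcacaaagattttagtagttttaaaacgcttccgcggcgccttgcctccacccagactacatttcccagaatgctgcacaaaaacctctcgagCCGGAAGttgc

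The NRF1 site, of another known regulator of such genes, was in 3 of 65 member promoters (4.62%, against 2.02% of tested genes), those of Mrpl9, Mrpl32 and Mrpl39. The YY1 site was in 4 (6.15%, against 1.66%), those of Mrpl35, Mrpl37, Mrps11 and Mrps18a. The E-box CACGTG was in 7.69% against 10.2%, and CCAAT in 38.5% against 38.2%. The direct repeat bound by PPAR/RXR was in 0 of 65 member windows and in 0.0426% of tested promoters, so it is rare in such windows altogether. None of the 6 motifs contains another. Of the 8 members lower with MRL24, 7 had a promoter and 4 of these held CCGGAAG. Mrpl23 and Mrpl47, which also fell and are not printed, held none of the 6 motifs. Mrpl39, which fell with MRL24, held the NRF1 site and a CCAAT box (in capitals), and Mrpl10, which rose with S273A and with rosiglitazone, held none of the 6 in the printed bases.
Mrpl39, chr16:84735245-84735494, minus strand: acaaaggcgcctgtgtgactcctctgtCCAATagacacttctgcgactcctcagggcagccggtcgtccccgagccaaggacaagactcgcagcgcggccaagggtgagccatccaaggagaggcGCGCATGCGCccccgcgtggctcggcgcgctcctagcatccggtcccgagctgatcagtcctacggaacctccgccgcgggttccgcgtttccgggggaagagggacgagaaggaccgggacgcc
Mrpl10, chr11:97041332-97041581, plus strand: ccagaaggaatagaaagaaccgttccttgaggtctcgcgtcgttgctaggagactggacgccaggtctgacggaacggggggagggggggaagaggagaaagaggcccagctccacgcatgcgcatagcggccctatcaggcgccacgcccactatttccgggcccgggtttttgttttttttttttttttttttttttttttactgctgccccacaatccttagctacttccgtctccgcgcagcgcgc

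Large subunit members ranged from a mean intensity of 289.4 over the 12 arrays for Mrpl19 to 4789 for Mrpl45, with a median of 1249.5. Small subunit members ranged from 172.5 for Mrps11 to 2409 for Mrps33, with a median of 901.3, and the median of all tested genes was 729.9. Probe sets differ in how brightly they report a transcript, so these values do not rank the genes.

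The comparison of MRL24 with untreated wild-type cells asked what this ligand changes in 24 h. No mitochondrial ribosomal protein gene rose and 8 of 74 fell, 5 of the large and 3 of the small subunit. That is 10.8% of the members, against 2.47% of all tested genes called lower (3.39% were called higher). Mrps18c fell most, 1.52-fold, followed by Mrpl47 at 1.33-fold, and the other 6 fell by 1.21-fold to 1.26-fold. Beyond the called genes, 60 of 74 members had a change below 0 (81.1%, against 47.4% of all tested genes). The median log2 change was -0.153 in the large and -0.144 in the small subunit, against 0.009 for all tested genes. At an unadjusted p under 0.05, 38 members were lower and 0 higher, against 11.7% of all tested genes lower and 13.5% higher. The 3 MRL24 arrays lay below the 3 untreated arrays in 33 members (44.6%, 22 large and 11 small) and above them in 2, against 14.2% and 15.6% of all tested genes.

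**Figure D1:**
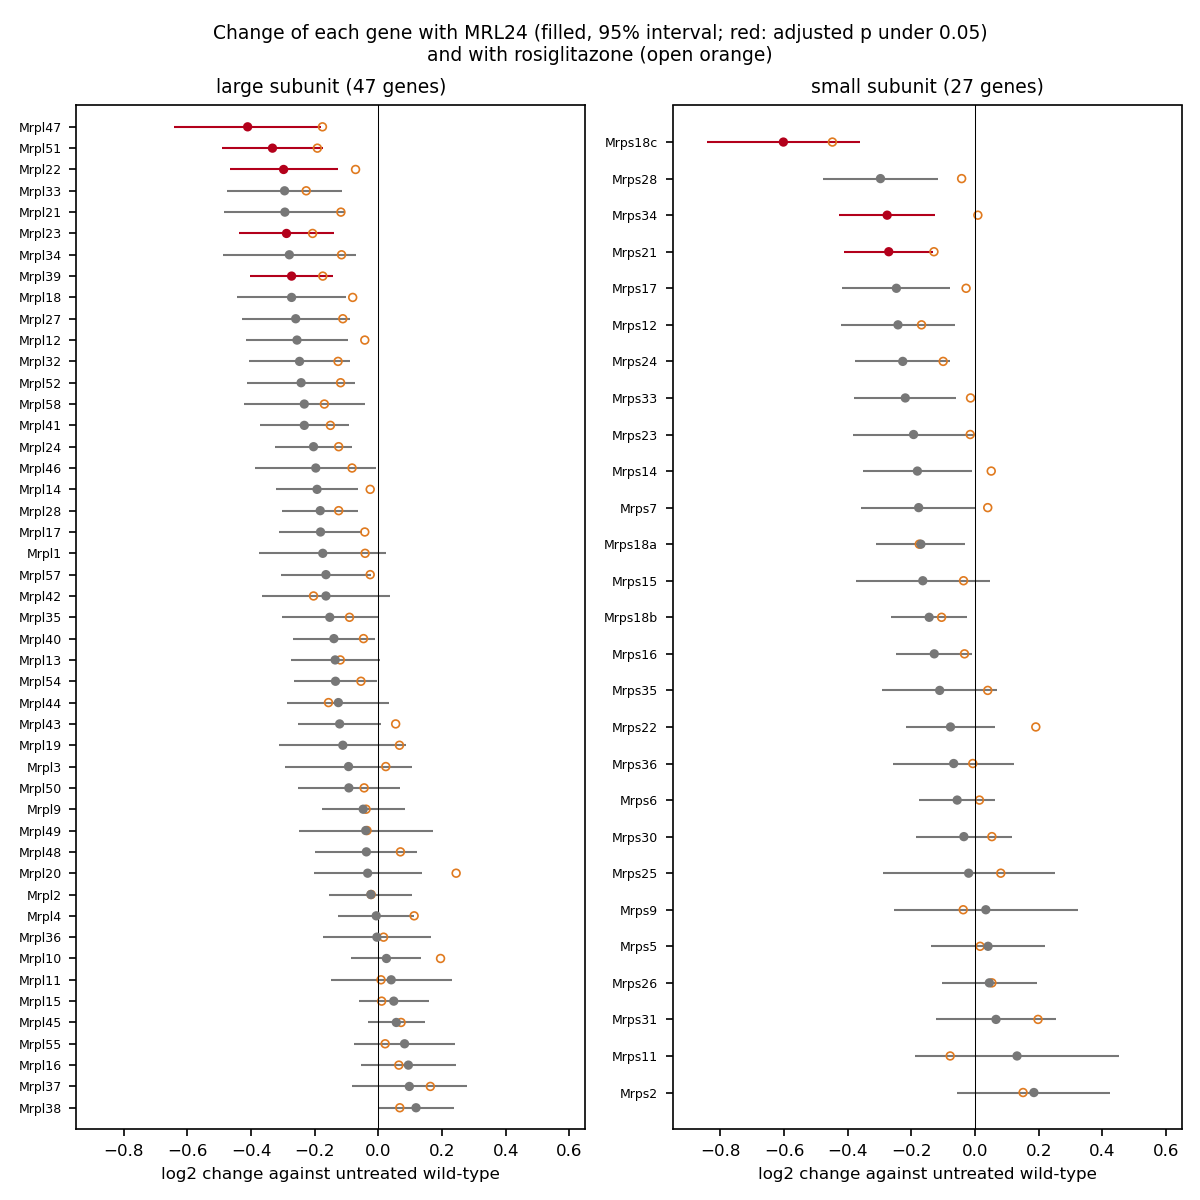
Log2 change of each of the 74 members against untreated wild-type cells, large subunit left and small subunit right. Filled points are MRL24 with 95% intervals, red where called, and open orange points are rosiglitazone. The 8 red genes are among the lowest of their subunit, and 60 of the 74 filled points are below 0.

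Mrps18c encodes 1 of 3 mammalian relatives of the bacterial protein S18. It read 985.9, 1445 and 1052 on the untreated arrays, 864.7, 833.5 and 869.6 with S273A, 767.5, 790.9 and 957.9 with rosiglitazone, and 813.7, 717.7 and 717.7 with MRL24. All 9 arrays of the other groups lay below the 3 untreated arrays, of which replicate 2 was much the highest. The mean went from 1161 ± 248 to 749.7 ± 55.4 with MRL24 (SD, n = 3), a log2 change of -0.60 (SE 0.12, adjusted p = 0.0107). Its relatives had no call: Mrps18a read 1193 ± 60.0 untreated and 1058 ± 31.8 with MRL24 (log2 change -0.17, adjusted p = 0.117), and Mrps18b 1558 ± 99.2 and 1407 ± 19.7 (log2 change -0.14, adjusted p = 0.119). In both, the MRL24 arrays lay below the untreated ones without overlap.

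Of the 5 large subunit members that fell, Mrpl22, in the tunnel wall, read 862.1, 996.5 and 791.2 untreated, 748.4, 801 and 781.3 with S273A, 777.3, 841 and 891.9 with rosiglitazone, and 697.4, 728.9 and 710.2 with MRL24. The MRL24 arrays were below all 9 others, and the log2 change from untreated was -0.30 (SE 0.08, adjusted p = 0.0376). Mrpl23, beside the tunnel exit, read 1502, 1858 and 1532 untreated, 1543, 1489 and 1456 with S273A, 1421, 1316 and 1479.8 with rosiglitazone, and 1307, 1356 and 1315 with MRL24. Here the MRL24 arrays were below every untreated and S273A array and overlapped those of rosiglitazone (log2 change -0.29, SE 0.07, adjusted p = 0.0316). Mrpl47, the relative of bacterial L29 at the exit, read 579.4, 796.3 and 624.7 untreated, 705.5, 599.4 and 615.9 with S273A, 538.4, 659.2 and 557.9 with rosiglitazone, and 492.7, 482.6 and 504.2 with MRL24. Again the MRL24 arrays were the lowest 3 of the 12, with a log2 change of -0.41 (SE 0.11, adjusted p = 0.0355). Mrpl24, also near the exit and among the 2 brightest members of the large subunit, read 3800.4 ± 377 untreated and 3288 ± 36 with MRL24, and missed the threshold at an adjusted p of 0.0514. The brightest, Mrpl45, which ties the ribosome to the inner membrane, read 4584 ± 198 and 4766 ± 145 (log2 change 0.06, adjusted p = 0.435), and its arrays overlapped.

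The other 2 large subunit members that fell belong to the proteins that bacterial ribosomes lack. Mrpl51 read 1759.6, 2022 and 1732 untreated, 1789.9, 1609 and 1473 with S273A, 1582, 1506 and 1728 with rosiglitazone, and 1453, 1475 and 1429.5 with MRL24. The MRL24 arrays were below all untreated and rosiglitazone arrays and overlapped S273A (log2 change -0.33, SE 0.08, adjusted p = 0.0216). A dimmer second probe set of Mrpl51, at a mean of 322.5, changed by 0.22 in the other direction with no call, and the mean of all its probe sets gave an adjusted p of 0.868. Mrpl39 read 1228, 1342 and 1278 untreated, 1277, 1284 and 1230.4 with S273A, 1179, 1050.5 and 1174 with rosiglitazone, and 1126, 1012 and 1040.1 with MRL24. Both ligand groups lay below both untreated groups, and MRL24 gave a log2 change of -0.27 (SE 0.06, adjusted p = 0.0223). The second probe set of Mrpl39 changed by -0.22.

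In the small subunit, Mrps34, which is specific to mitochondria and needed for the stability of the subunit, read 921.8, 944.2 and 876.7 untreated, 927.5, 928.6 and 795.3 with S273A, 889.5, 890.0 and 982.7 with rosiglitazone, and 802.8, 733.8 and 721.1 with MRL24. The MRL24 arrays were below all untreated and rosiglitazone arrays, with 1 S273A array between theirs (log2 change -0.28, SE 0.07, adjusted p = 0.0385). Mrps21, the relative of bacterial S21, read 1207, 1349.8 and 1158 untreated, 1124, 1080.1 and 1103 with S273A, 1073, 1197 and 1118 with rosiglitazone, and 1069, 1007 and 988 with MRL24. Its MRL24 arrays were the lowest of the 12, the highest of them, 1069, just under the lowest rosiglitazone array (log2 change -0.27, SE 0.07, adjusted p = 0.0275).

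**Figure D2:**
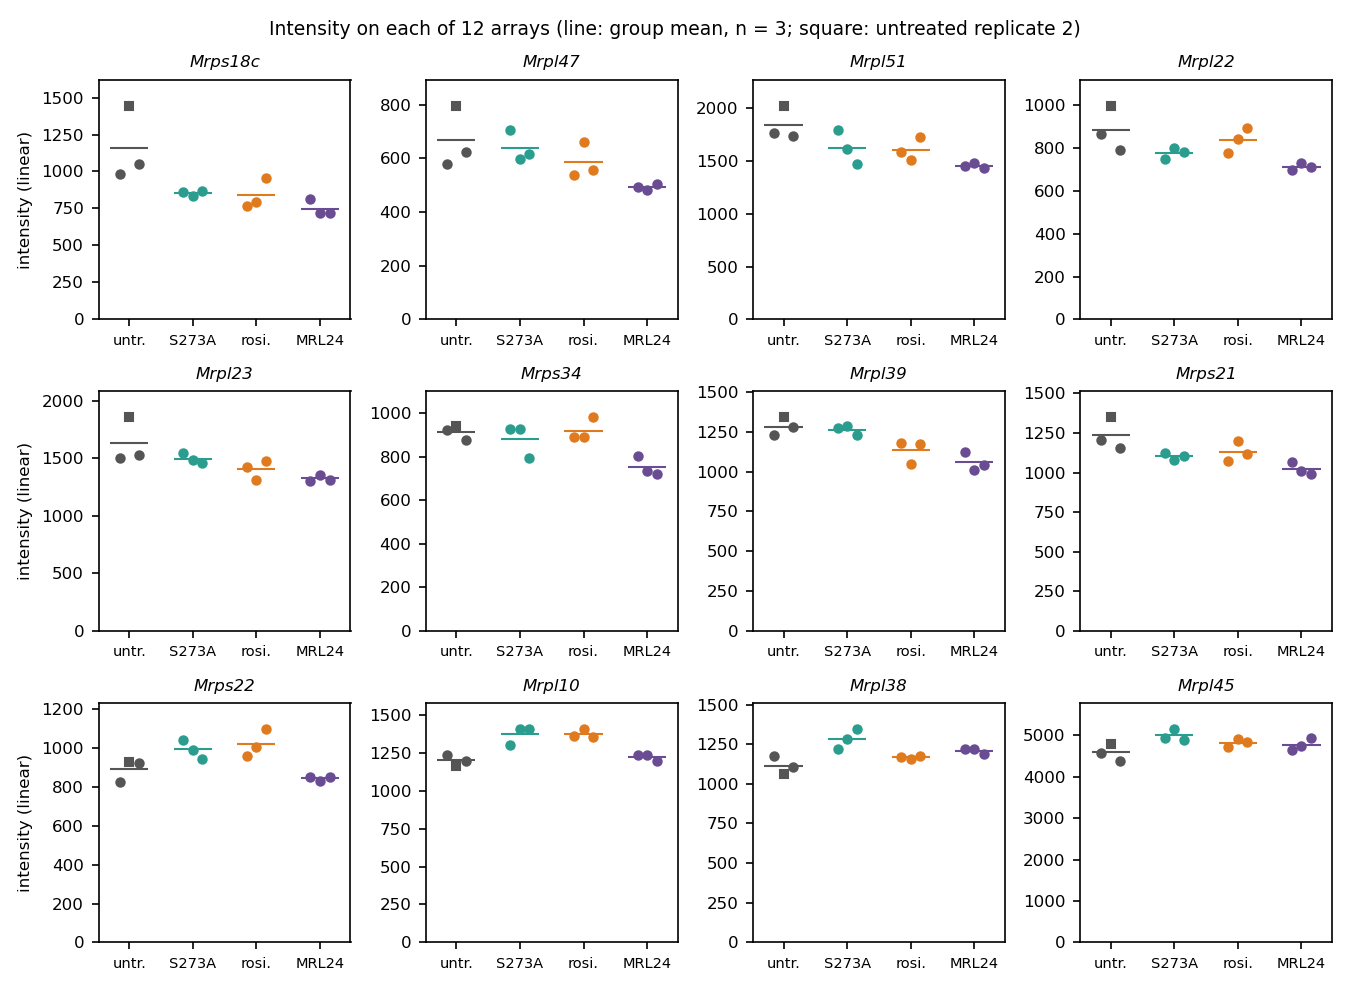
Linear intensity on each of the 12 arrays for the 11 called members and for Mrpl45, the brightest, by group, with axes from 0. Each point is 1 array, the line is the mean of 3, and the square is untreated replicate 2. The MRL24 points are the lowest of the 12 in Mrpl22, Mrpl47 and Mrps21, while in Mrps18c untreated replicate 2, at 1445, lies far above the rest.

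Members chosen for their role mostly did not pass. Mrpl12, a stalk protein that recruits translation factors and also binds the mitochondrial RNA polymerase, read 806, 889.5 and 888.3 untreated and 807.1, 687.1 and 667.6 with MRL24, so that 1 array of each group overlapped (log2 change -0.26, adjusted p = 0.0552). Mrpl11 at the stalk base read 2599 ± 219 and 2667 ± 68.2, and Mrpl3, near the peptidyl transferase centre, 449.1 ± 24.1 and 419.5 ± 15.1. Mrpl41 read 715.7 ± 36.5 and 606.4 ± 27.3 (log2 change -0.23, adjusted p = 0.0536), Mrpl40 1602 ± 117 and 1451 ± 86.9, and Mrpl44, which carries an RNase III-like fold, 705.4 ± 19.0 and 646.2 ± 51.5. Of the small subunit, Mrps12 at the decoding centre read 633.8 ± 76.6 and 531.4 ± 20.4 (log2 change -0.24, adjusted p = 0.0955) and Mrps16 1442 ± 86.3 and 1317 ± 44.8 (adjusted p = 0.161). Mrps7 read 532.2 ± 43.2 and 468.3 ± 27, Mrps5, the relative of bacterial S5, 499.2 ± 35.9 and 513.5 ± 21, and Mrps30, which structures place in the large subunit despite its name, 1457 ± 35.7 and 1422 ± 59.9. None of these 11 genes was called, and 9 of them had a change below 0.

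Of the remaining brightest and dimmest members, Mrps33 read 2519.9 ± 364 untreated and 2150 ± 76.6 with MRL24 (log2 change -0.22, adjusted p = 0.0854). Mrps14 read 1971, 2590 and 2090.3 untreated and 1964, 1921 and 1938 with MRL24 (log2 change -0.18, adjusted p = 0.18), but a dimmer probe set of the same gene, at a mean of 511.9, changed by 0.36, past the threshold in a fit over all probe sets (adjusted p = 0.0421). The 2 probe sets of Mrps14 thus gave opposite directions. The dimmest members, Mrpl19 (287.8 ± 4.13 and 265.1 ± 12.2), Mrpl1 (385.8 ± 4.95 and 340.7 ± 27.7), Mrps11 (175.3 ± 28.2 and 193.2 ± 25.5) and Mrps25 (189.3 ± 29.3 and 185.7 ± 18.5), had adjusted p-values from 0.26 to 0.942. Of all 53 further probe sets of the members, 38 were below 0 with MRL24 and 15 above, with a median of -0.06, and 30 had the sign of the probe set used. Of the 35 above the minimum level, 28 were below 0, with a median of -0.11.

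The size of the MRL24 difference depended on untreated replicate 2. That array was the highest of the 12 in 37 of 74 members, and in 19.3% of all tested genes. Without it, the median log2 change with MRL24 was -0.107 in the large and -0.064 in the small subunit, and 57 of 74 members were below 0 (47.9% of all tested genes). Mrps18c was then the 1 member called, at a log2 change of -0.44 (adjusted p = 0.0218), against 0.542% of all tested genes called lower, and 23 of 74 members were lower at an unadjusted p under 0.05, against 7.18% of all tested genes. The call of Mrps18c was lost without MRL24 replicate 3 (adjusted p = 0.0547), and those of the other 7 without untreated replicate 2, MRL24 replicate 2 or MRL24 replicate 3. MRL24 replicate 3 was the lowest of the 12 arrays in 28 of 74 members (37.8%, against 5.73% of all tested genes). With it left out, 0 large and 0 small subunit members were called lower, against 0.242% of all tested genes. Without MRL24 replicate 1, 2 large and 2 small subunit members were called lower, against 0.715% of all tested genes. Without untreated replicate 1 it was 16 and 5, against 4.38%, and without untreated replicate 3 it was 10 and 5, against 3.84%, so that calls over all genes rose in number as well. Fitting just the 6 untreated and MRL24 arrays called 0 members and 50 genes in all.

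The members were also read array by array. For each member the deviation of an array from the gene's own 12-array mean was taken on the log2 scale, and the median over members was -0.066, -0.12 and -0.118 on the 3 MRL24 arrays, against -0.028, 0.156 and -0.01 on the untreated arrays. It was 0.035, 0.058 and 0.034 on the S273A arrays and -0.039, 0.006 and 0.045 on the rosiglitazone arrays. All 3 MRL24 arrays were thus below the other 9, and 62, 63 and 62 of the 74 members lay below their own mean on them. The medians of all tested genes stayed between -0.015 and 0.027. MRL24 had the lowest of the 4 group means in 54 members (73.0%, against 20.4% of all tested genes), 34 of the large and 20 of the small subunit. In 13 members (17.6%, against 2.37%) every MRL24 array was below all 9 others, and in none was it above them (2.94% of all tested genes). The 13 were Mrpl14, Mrpl17, Mrpl22, Mrpl24, Mrpl27, Mrpl32, Mrpl47, Mrpl54, Mrps14, Mrps21, Mrps24, Mrps28 and Mrps33. Dimmer second probe sets of Mrpl17 and Mrps14 changed by 0.07 and 0.36 with MRL24 against untreated cells, and that of Mrps24 by -0.30. The MRL24 arrays lay below untreated replicates 1 and 3 in 34 members (45.9%, against 17.5%) and below all S273A arrays in 38 (51.4%, against 13.8%), a pair of groups that differ in both receptor form and ligand.

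**Figure D3:**
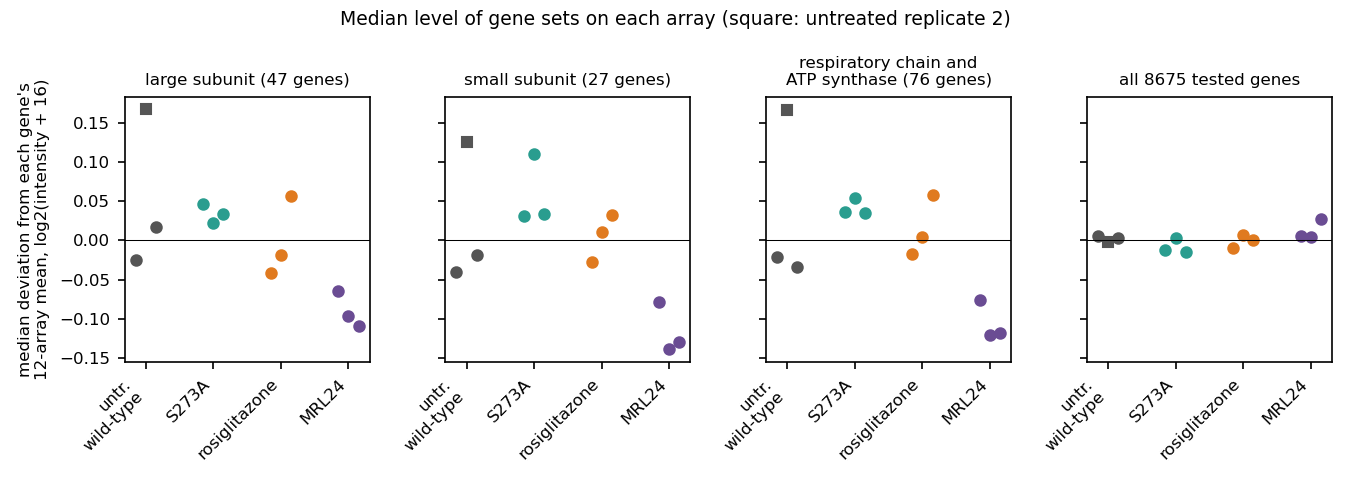
Median deviation from each gene's 12-array mean, in log2 units, on each of the 12 arrays for the large subunit, the small subunit, the respiratory chain and ATP synthase genes and all tested genes. Each point is 1 array and the square is untreated replicate 2. The MRL24 points lie at -0.064 to -0.139 for the 2 subunits and untreated replicate 2 at 0.167 and 0.126, while all tested genes stay near 0.

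The direct comparison of rosiglitazone with MRL24, at 1 µM for 24 h each, asked where the ligands differ and does not use the levels of the untreated arrays, which enter it only through the shared spread. Mrps34 and Mrps22, both of the small subunit, were higher with rosiglitazone and no member was lower, which is 2.7% of the members, against 1.5% of all tested genes called higher and 1.16% called lower. No large subunit member was called by limma, although 11 of 47 had an unadjusted p under 0.05, all higher with rosiglitazone. Over both subunits 62 of 74 members were higher with rosiglitazone, with medians of 0.094 (large) and 0.127 (small) on the log2 scale, and 55.8% of all tested genes were lower. At an unadjusted p under 0.05, 19 members were higher and 0 lower, against 6.77% and 8.59% of all tested genes. In 28 members (37.8%, against 11.2% of all tested genes) the 3 rosiglitazone arrays lay above the 3 MRL24 arrays, and in 1, Mrpl38, below them (14.8%).

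Mrps22, a mitochondria-specific protein of the small subunit, read 826.9, 929.9 and 922.4 untreated, 1042, 993.5 and 947.1 with S273A, 958.5, 1008 and 1101 with rosiglitazone, and 851.1, 828.8 and 853.5 with MRL24. The untreated arrays overlapped those of MRL24, and the arrays of S273A and rosiglitazone lay above both. The log2 difference between the ligands was 0.27 (SE 0.07, adjusted p = 0.0435). For Mrps34, given above, it was 0.29 (SE 0.07, adjusted p = 0.0485). Each call was lost when any 1 of the 3 MRL24 arrays or rosiglitazone replicate 2 or 3 was left out, with the highest adjusted p, 0.228 for Mrps22 and 0.234 for Mrps34, without rosiglitazone replicate 3. That of Mrps22 was also lost without S273A replicate 2 (adjusted p = 0.0591). That of Mrps34 was also lost without rosiglitazone replicate 1 (adjusted p = 0.076) and, by less, without 4 of the 6 other arrays (0.0528 to 0.0584). Without untreated replicate 2, which enters here only through the shared spread, 8 members were called higher with rosiglitazone (2.89% of all tested genes were), namely Mrpl20, Mrpl22, Mrpl43, Mrps14, Mrps22, Mrps28, Mrps33 and Mrps34. The dimmer probe set of Mrps14 differed by -0.09, in the other direction, in a fit to all 12 arrays. Mrps28, for example, read 547.3, 547.5 and 579.6 with rosiglitazone and 468.4, 451.2 and 475.6 with MRL24, a log2 difference of 0.26. Mrpl20 read 697.3, 786.1 and 799.4 against 588.4, 634.5 and 650.3, a difference of 0.28.

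**Figure D4:**
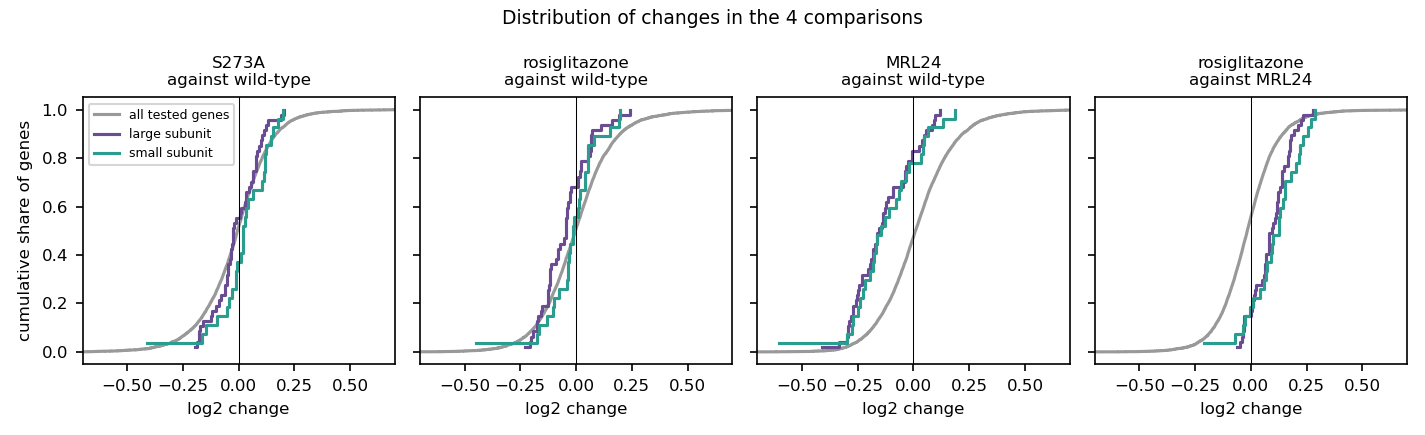
Cumulative share of genes against log2 change in the 4 comparisons, for the large subunit, the small subunit and all 8675 tested genes, with the axis drawn from -0.7 to 0.7. The curves of both subunits lie left of all tested genes with MRL24 and right of them for rosiglitazone against MRL24, where 62 of 74 members are above 0.

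Rosiglitazone against untreated wild-type cells asked what the full agonist changes. It gave 1 call higher and 1 lower among the 74 members, against 3.94% and 4.58% of all tested genes. The medians were -0.045 in the large and -0.014 in the small subunit, and 63.5% of the members were below 0, against 50.8% of all tested genes. At an unadjusted p under 0.05, 4 members were higher and 10 lower, against 11.1% and 12.6% of all tested genes. Mrpl10, a protein of the stalk that recruits translation factors, read 1237, 1165 and 1195 untreated, 1299.7, 1403 and 1407 with S273A, 1360.2, 1408 and 1355 with rosiglitazone, and 1232, 1235 and 1193 with MRL24. Every array of S273A and rosiglitazone lay above every untreated and MRL24 array, and with rosiglitazone the log2 change was 0.19 (SE 0.05, adjusted p = 0.0301). Mrps18c fell by 0.45 on the log2 scale (SE 0.12, adjusted p = 0.0237). The call of Mrpl10 was lost without any 1 rosiglitazone array (adjusted p = 0.0646 to 0.123) and without untreated replicate 3 (0.0583), and that of Mrps18c without rosiglitazone replicate 1 or 2 (0.0952 and 0.0999). Without untreated replicate 2 the adjusted p-values were 0.0772 and 0.0733, and Mrpl20 was instead called higher (log2 change 0.33, adjusted p = 0.0169, with 3.19% of all tested genes called higher). In 9 members the arrays did not overlap, 3 higher and 6 lower, against 12.1% and 14.2% of all tested genes.

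S273A against wild-type cells, both without ligand, asked what replacing the phosphorylated serine changes. Of the 74 members, Mrpl10 and Mrpl38 rose and Mrps18c fell, against 2.31% of all tested genes called higher and 5.48% called lower. The log2 change of Mrpl10 was 0.19 (SE 0.05, adjusted p = 0.038). Mrpl38, a mitochondria-specific protein on the surface of the large subunit, read 1177, 1060 and 1105 untreated, 1218, 1285 and 1348 with S273A, 1168, 1159 and 1173 with rosiglitazone, and 1218, 1218 and 1191 with MRL24. Its S273A arrays were above the untreated and rosiglitazone ones, the lowest of them level with 2 MRL24 arrays (log2 change 0.20, SE 0.06, adjusted p = 0.0384), and the mean with its dimmer second probe set gave an adjusted p of 0.374. Mrps18c changed by -0.41 (SE 0.12, adjusted p = 0.0394). The calls of Mrpl10 and Mrpl38 were lost without S273A replicate 2 or 3 (adjusted p = 0.101 to 0.145), untreated replicate 3 or any 1 ligand array, and that of Mrps18c without any 1 S273A array (0.0782 to 0.119) or MRL24 replicate 2 or 3. The medians were -0.023 in the large and 0.020 in the small subunit, with 48.6% of the members and 51.6% of all tested genes below 0. At an unadjusted p under 0.05, 6 members were higher and 8 lower, against 8.32% and 13.1% of all tested genes. The arrays did not overlap in 6 members that were higher and 5 that were lower, against 9.11% and 13.9%. Without untreated replicate 2 the medians were 0.054 and 0.122, those 3 calls were lost, and Mrpl33 (log2 change 0.22, adjusted p = 0.0393) and Mrpl45 (0.16, adjusted p = 0.0323) were called higher instead, against 2.65% of all tested genes. The S273A arrays also lay below the untreated ones in summed fibroblast markers, of which 6 of 9 fell. They lay above them in summed macrophage markers, of which 1 of the 5 above the minimum level rose. Cd68, a lysosomal protein of macrophages, read 556.5 untreated and 869.7 with S273A on average. Mrc1 (387.5 and 353.8), Lyz2 (17.58 and 9.893) and Ptprc (48.45 and 43.96) were lower with S273A, and the other macrophage markers higher. The part of these markers in the members' values was not tested. Mrpl10 and Mrps18c appear in more than 1 comparison with the same untreated arrays, so these are not separate observations.

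Neighbouring gene groups were read in the same way for MRL24 against untreated cells. Mitoribosomal proteins that go by other names, left out by the symbol rule, gave 2 calls among 4 genes, both lower, against 2.47% of all tested genes called lower. Chchd1 fell from 1734 ± 238 to 1319 ± 55.1 (log2 change -0.38, adjusted p = 0.011) and Gadd45gip1 from 722.8 ± 51.0 to 550.4 ± 23.2 (log2 change -0.38, adjusted p = 0.00935). Dap3, the GTP-binding protein of the small subunit, and Ptcd3 changed by 0.03 and -0.06 with no call. Without untreated replicate 2 the list still held 2 calls, both lower, against 0.542% of all tested genes. Of 76 nuclear genes for respiratory chain and ATP synthase subunits, whose products mostly assemble with proteins made on this ribosome, 12 fell and none rose. That is 15.8%, against 2.47% of all tested genes called lower. The median was -0.138, and 69 were below 0 (90.8%, against 47.4%). Ndufa13 and Ndufa3 of complex I and Ndufa4, first described in complex I and later assigned to complex IV, had the largest changes among the called genes, -0.34, -0.33 and -0.34. Without untreated replicate 2, 2 of the 76 were called lower, against 0.542% of all tested genes, and the median was -0.081. Between the ligands 73 of the 76 were higher with rosiglitazone, 4 of them called (5.26%, against 1.5% of all tested genes called higher). Among these 4, cytochrome c (Cycs) differed by 0.61, from 6008 ± 133 with MRL24 to 9199 ± 352. With untreated replicate 2 left out, 29 of the 76 were called higher with rosiglitazone. In that fit 8 of the 74 members and 2.89% of all tested genes were.

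Other steps of mitochondrial gene expression had smaller medians. Translation factors (10 genes, median -0.023), mitochondrial aminoacyl-tRNA synthetases (8 genes, 0.016) and factors of ribosome assembly and rRNA modification (16 genes, 0.047) gave 0 calls with limma. At an unadjusted p under 0.05 there was 1 translation factor, lower, 1 synthetase, higher, and 3 assembly genes, all higher. These are 10.0%, 12.5% and 18.8% of the lists, against 25.2% of all tested genes. Of 28 import and folding genes (median -0.054), the small chaperone of the intermembrane space Timm8b fell by 0.45 and the co-chaperonin Hspe1 by 0.34, while the matrix protease Lonp1 rose by 0.16. Of 9 genes for mitochondrial DNA transcription and maintenance (median 0.056), the single-strand binding protein Ssbp1 fell by 0.35 and the exonuclease Mgme1 rose by 0.41. Of 12 regulators of mitochondrial biogenesis (median -0.021), Yy1 rose by 0.22 and no other was called. Of all tested genes, 2.47% were called lower and 3.39% higher in this comparison. Without untreated replicate 2 these 3 lists gave 1 call lower, 1 call higher and 0 calls. In that fit 47 of 8675 tested genes were called lower and 108 higher. The proteins of the cytosolic ribosome, 46 genes with a median of 0.026, gave 0 calls. At an unadjusted p under 0.05 there were 8 (17.4%, against 25.2% of all tested genes), 3 higher and 5 lower.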

How the data were processed

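Total RNA of 12 samples, 4 groups of 3, was labelled with biotin and hybridised to 1-colour arrays. The deposited values are linear intensity per probe set, and nothing used here states the authors' normalization. Of 22690 probe sets, 64 controls, 691 with several symbols and 1555 unnamed ones were left out, and the brightest probe set of each of 12393 genes was kept. Genes with a mean under the 30th percentile, 132.3, were not tested. Values were used as log2(value + 16), so changes of dim genes are understated.

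All 12 arrays were fitted with limma 3.58.1 in R 4.3.3 (lmFit, eBayes with trend), with 8 residual df, 7.56 prior df and a residual SD of 0.0969 at the median. The adjusted p is Benjamini-Hochberg over 8675 genes. Of the 4 comparisons, 3 share the untreated arrays. The number of arrays limits precision. On data simulated for S273A against wild-type among 8675 genes, 6, 38, 49 and 50 of 50 changes were recovered at log2 sizes of 0.2, 0.4, 0.8 and 1.6, with 7 false calls. Thus most changes of 0.2 were missed in the simulation. It changed fewer genes than the 675 called in that comparison and held no array that stood apart. Recovery in the data may therefore differ.

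Members and lists were chosen with earlier results of these data known. Genes were named if called, brightest or dimmest of a subunit, listed for their role, or with opposite probe sets. Called members are given with every array, the others mostly as means ± SD. From other lists, the called genes with the largest changes are named. Promoters came from RefSeq's table (GRCm38.p6). Alternatives covered the filter, pseudocount, scaling, probe sets, arrays fitted, array weights, trend, replicate block and single arrays left out. Tables and figures used Python 3.11.15, pandas 2.3.3 and matplotlib 3.10.9.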

Additional observations from a re-analysis of the deposited data

How the results depend on the processing

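No called change of a member turned its direction in any alternative. Values near 0 without a call did turn: with array weights the large subunit median for S273A was 0.037 and the small subunit median for rosiglitazone 0.035, against -0.023 and -0.014, and the ranges without single arrays, given last, show that these and the small subunit median for S273A crossed 0. With the mean of probe sets, Mrpl3 and Mrpl38 differed with MRL24 by 0.04 and -0.02, against -0.09 and 0.12. Over all alternatives that kept 12 arrays or the 6 of a comparison, the MRL24 medians stayed between -0.197 and -0.114 (large) and between -0.189 and -0.104 (small), all below 0, while the number of calls changed. Changes near 0.2 lie at the limit of what 3 arrays a group can call. Numbers of members called are given as large and small subunit. Over the alternatives MRL24 called between 50 and 713 genes in all. Shares of all tested genes called in each of these fits are not given, here or for the replicate block. The counts thus cannot show whether the members' result became stronger or weaker. Without a filter, MRL24 gave 226 genes and 1 large subunit member lower, and the small subunit calls for S273A, rosiglitazone and the ligand contrast became 0. The 50th percentile filter gave 11 large members lower with MRL24. Setting arrays to the same median gave 17 and 6 lower with MRL24 and 0 large members higher with rosiglitazone. Quantile normalization gave 10 large lower with MRL24 and 0 small lower with S273A. The mean of probe sets gave 1 large member higher with S273A. Fits to the 6 arrays of a comparison called 243, 372, 50 and 557 genes (S273A, rosiglitazone, MRL24, ligand contrast), no member in the first 3, and 2 large and 6 small members higher in the ligand contrast. Array weights gave 1 large higher and 0 small lower with S273A, 2 large higher with rosiglitazone, and 673 genes with 5 large and 6 small members higher in the ligand contrast. Without the trend, S273A and rosiglitazone gave 0 small members lower, MRL24 193 genes with 1 large and 1 small member lower, and the ligand contrast 142 genes with 0 small members higher. The filter at the 30th percentile of all probe sets, chosen after seeing the data, gave 1 small member higher in the ligand contrast. The cause of these differences was not tested.

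The replicate numbers did not pair the arrays: the 18 correlations of same-numbered deviations ran from -0.116 to 0.147, with 2 over 0.1. With the replicate number as a block, MRL24 gave 5 large and 2 small members lower, S273A 0 large higher and 0 small lower, rosiglitazone 0 large higher and the ligand contrast 0 small higher.

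Leaving out single arrays gave 396 to 649 genes for S273A, 392 to 787 for rosiglitazone, 70 to 838 for MRL24 and 99 to 494 for the ligand contrast. Of all tested genes, 0.242% were called lower with MRL24 without MRL24 replicate 3, and 4.38% without untreated replicate 1. For S273A, rosiglitazone and the ligand contrast, such shares are given above only for higher calls without untreated replicate 2. The counts that follow thus cannot show whether the members' result in these comparisons became stronger or weaker. Members called ranged, for S273A, from 0 to 2 large higher and 0 to 1 small lower, for rosiglitazone from 0 to 1 large higher, 0 to 2 large lower and 0 to 2 small lower, for MRL24 from 0 to 16 large and 0 to 5 small lower, and for the ligand contrast from 0 to 3 large and 0 to 5 small higher. Medians ranged, large then small, from -0.045 to 0.054 and -0.018 to 0.122 for S273A, -0.091 to -0.008 and -0.049 to 0.058 for rosiglitazone, -0.195 to -0.107 and -0.155 to -0.064 for MRL24, and 0.072 to 0.107 and 0.1 to 0.152 for the ligand contrast.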
